A study of Mus musculus with 6 samples.

Results

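The mRNA levels of 10 marker genes of epithelial-mesenchymal transition were followed in the anterior prostate (AP) of mice with over-activated Notch1 signaling. The genes were chosen by symbol from the 55076 rows listed for each mouse, and all 10 were found once. They are the epithelial genes Cdh1 and Epcam, the mesenchymal genes Cdh2, Vim and Fn1, and the transcription factor genes Snai1, Snai2, Twist1, Zeb1 and Zeb2. Of these, only Fn1 passed both criteria of the comparison, with a mean of 26.0 FPKM in OEx mice against 7.72 FPKM in Ctrl mice, and its groups overlapped. Cdh1 was higher in every OEx mouse than in every Ctrl mouse, at 1.54 times the mean level but below the fold criterion, and Vim did not pass the test.

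In epithelial-mesenchymal transition, epithelial cells loosen their junctions and take on properties of mesenchymal cells. E-cadherin, the product of Cdh1, holds neighbouring epithelial cells together, and factors of the Snail, Twist and Zeb families are known to repress its transcription. In the prostate, the luminal and basal cells of the epithelium express epithelial markers, while fibroblasts, smooth muscle, vessels and leukocytes of the stroma express Vim and many of the other mesenchymal markers without any transition.

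Total RNA of the whole AP was sequenced from 3 OEx and 3 Ctrl male mice at 20 weeks of age, with 1 library per mouse. OEx mice carried Pbsn-Cre and the Cre-inducible Rosa26 N1ICD/+ allele, which encodes the intracellular domain of Notch1 (labelled N1ICD-Oex). Ctrl mice carried Rosa26 N1ICD/+ without Cre and are labelled wild type. Pbsn-Cre acts in prostatic epithelial cells, whereas the RNA came from every cell type of the lobe, so that fewer cells of a type and less RNA per cell cannot be told apart. Values are FPKM, fragments for each kilobase of a gene set against library size. OEx was compared with Ctrl by limma on log2(FPKM + 1) for the 12833 rows whose mean over the 6 mice reached 1 FPKM. Called genes had both an FDR (Benjamini-Hochberg) under 0.05 and a log2 fold change above 1 in size. By these criteria 28.6% of all tested rows were called, 12.9% as higher and 15.7% as lower in OEx mice.

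Notch1 itself was at 41.9, 47.6 and 78.9 FPKM in OEx mice and at 5.18, 5.55 and 3.34 FPKM in Ctrl mice, where the value does not separate the transgene from the endogenous gene. The recovered depth ran from 14772005 to 18655462 reads per mouse. Replicate 3 stood apart in each group. Across tested rows, log2(FPKM + 1) of OEx replicates 1 and 2 correlated with r = 0.991, against 0.950 and 0.951 with OEx replicate 3, and Ctrl replicates 1 and 2 with r = 0.991, against 0.965 with Ctrl replicate 3. Summed seminal vesicle markers reached 16128 FPKM in Ctrl replicate 3 and stayed between 0.578 and 4.36 FPKM in the other 5 mice. Results that rest on replicate 3 are therefore given with and without it.

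Among the 10 genes, Epcam and Cdh1 had the highest levels in both groups. Mean Epcam was 371 ± 104 FPKM in OEx mice and 268 ± 47.3 FPKM in Ctrl mice (SD, n = 3), above 99.3% and 98.2% of tested rows. The order below them differed between groups, since Fn1 stood above Vim in each OEx mouse and below it in each Ctrl mouse. Fn1 and Vim overlapped in their OEx ranges, whereas in Ctrl mice Vim was clear of Fn1. The transcription factor genes were all under 3 FPKM in each mouse. In OEx mice, the neighbours in the order Zeb1, Snai1, Twist1, Zeb2, Snai2 and Cdh2 overlapped in their ranges. In Ctrl mice, Twist1, Snai1, Snai2 and Zeb1 overlapped with their neighbours, Zeb2 lay below all of them, and Cdh2 was lowest.

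**Figure D1:**
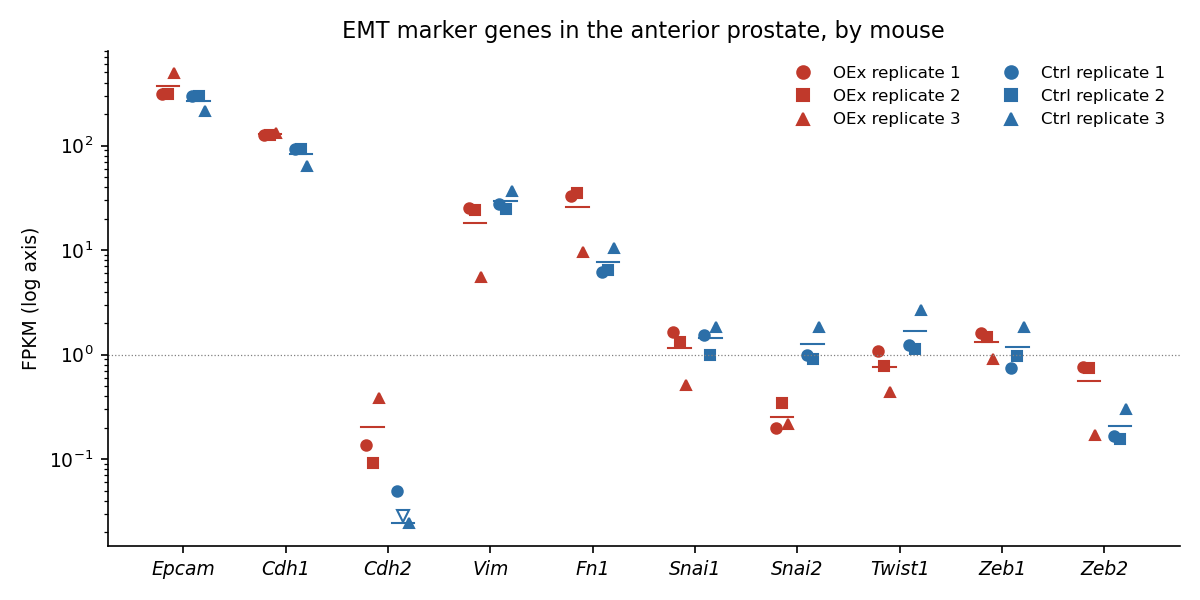
FPKM of the 10 marker genes on a log axis, with 1 point per mouse and a horizontal bar at the mean of the 3 mice of a group. The open triangle marks Cdh2 in Ctrl replicate 2, listed at 0 and drawn at the value of 3 reads (0.0287 FPKM). OEx replicate 3 is lowest among the OEx mice for Vim, Fn1, Snai1, Twist1, Zeb1 and Zeb2 and highest for Cdh1, Epcam and Cdh2.

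Both epithelial markers had higher means in OEx than in Ctrl mice. Cdh1 (chr8:106603351-106670246, GRCm38) was at 127, 127 and 131 FPKM in OEx mice and at 92.6, 93.6 and 64.2 FPKM in Ctrl mice. The OEx mice lay close together and above every Ctrl mouse, and Ctrl replicate 3 was the lowest. The log2 fold change was 0.63 (SE 0.155, 95% interval 0.26 to 1.01, limma FDR 0.0101), below the fold criterion. FDR alone was under 0.05 for 67.2% of all tested rows, and the groups did not overlap in 72.4%. An exact two-sided permutation test gave p = 0.1, the smallest that 3 against 3 mice allow. Without replicate 3 of both groups, the log2 fold change of Cdh1 was 0.44 (limma FDR 2.59e-04).

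Epcam (chr17:87635979-87651129), which encodes an epithelial cell adhesion molecule, was at 313, 310 and 491 FPKM in OEx mice and at 297, 295 and 214 FPKM in Ctrl mice. The groups did not overlap, but OEx replicates 1 and 2 lay just above Ctrl replicates 1 and 2, and replicate 3 was the highest of the OEx and the lowest of the Ctrl mice. Its log2 fold change of 0.45 did not pass the test (SE 0.223, 95% interval -0.09 to 0.98, limma FDR 0.117). With replicate 3 of both groups left out it was 0.07 (limma FDR 0.119). The ratio of Cdh1 to Epcam within a mouse was 40.5%, 41.0% and 26.7% in OEx mice and 31.2%, 31.8% and 30.0% in Ctrl mice, with overlapping groups.

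Snail and Zeb factors bind E-boxes with the letters CACCTG, which read CAGGTG on the other strand, so the promoters of the marker genes were searched for them. RefSeq windows (GRCm38.p6) of 300 bases, from 250 before to 50 after a start, were at hand for 5 of the 10 genes, Epcam, Snai1, Vim, Twist1 and Zeb2 (8 windows, 4 of them of Zeb2). The E-box was found 2 times in the window of Epcam, with its first base 187 and 19 bases before the start, and 1 time in that of Snai1, 126 bases before the start. It was not in the windows of Vim, Twist1 and Zeb2, and 20.2% of all 32851 windows held it. The core letters bound by RBPJ, the DNA-binding partner of N1ICD, are TTCCCA, which read TGGGAA on the other strand. They were in 25.6% of all windows and, of the marker genes, in 1 window of Zeb2, 39 bases after its start. The 250 bases before the starts of Epcam (chr17:87635729-87635978, plus strand) and Snai1 (chr2:167537945-167538194, plus strand) are shown because they hold the E-boxes, which are in capitals.
Epcam: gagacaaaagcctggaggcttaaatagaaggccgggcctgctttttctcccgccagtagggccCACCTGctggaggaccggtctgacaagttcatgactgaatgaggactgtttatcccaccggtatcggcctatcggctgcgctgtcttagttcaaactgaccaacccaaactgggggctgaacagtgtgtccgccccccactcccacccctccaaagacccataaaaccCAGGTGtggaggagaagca
Snai1: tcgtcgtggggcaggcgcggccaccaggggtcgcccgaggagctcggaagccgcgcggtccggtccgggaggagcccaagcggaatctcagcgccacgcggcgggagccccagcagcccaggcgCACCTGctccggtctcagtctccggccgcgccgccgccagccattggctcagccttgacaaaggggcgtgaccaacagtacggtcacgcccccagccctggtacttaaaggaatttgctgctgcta
In the Epcam sequence the E-box nearer the start reads CAGGTG, that is, CACCTG on the opposite strand. A match describes the letters and does not show that a factor binds there.

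Cdh2 (chr18:16588877-16809246), which encodes N-cadherin, was close to the detection limit. It was listed at 0.137, 0.0922 and 0.385 FPKM in OEx mice, from 22, 17 and 56 recovered reads. In Ctrl mice it was listed at 0.0495, 0 and 0.0245 FPKM, from 5, 0 and 3 reads. Each OEx mouse was above each Ctrl mouse, and OEx replicate 3 was the highest. The gene was under the minimum of 1 FPKM and was not tested in the main comparison. The mean level was 8.29 times higher in OEx mice, from these few reads. In the limma fit with no filter on low values the log2 fold change of Cdh2 was 0.23 (FDR 0.111). The 1 FPKM added before the log2 shrinks changes at this level. For each 100000 FPKM of Cdh1, Cdh2 amounted to 108, 72.6 and 294 FPKM in OEx mice and to 53.5, 0 and 38.1 FPKM in Ctrl mice. N-cadherin transcripts thus stayed at a small share of E-cadherin transcripts in all mice. The gene Gm15485 overlaps Cdh2 on the other strand and could share reads with it.

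Vim (chr2:13573927-13582826), the gene of the intermediate filament vimentin, was at 25.3, 24.0 and 5.54 FPKM in OEx mice and at 27.4, 24.5 and 37.1 FPKM in Ctrl mice. Replicates 1 and 2 of both groups lay in a narrow range, while OEx replicate 3 was the lowest and Ctrl replicate 3 the highest. The log2 fold change of -0.89 did not pass the test (SE 0.536, 95% interval -2.18 to 0.39, limma FDR 0.180). Leaving out replicate 3 of both groups gave -0.07 (limma FDR 0.395). Relative to Cdh1 in the same mouse, Vim was at 20.0%, 18.9% and 4.23% in OEx mice and at 29.6%, 26.2% and 57.7% in Ctrl mice. Here the groups did not overlap, and all OEx ratios were the lower ones.

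Fn1 (chr1:71585520-71653200), the gene of the matrix glycoprotein fibronectin, was at 32.9, 35.4 and 9.68 FPKM in OEx mice and at 6.22, 6.41 and 10.5 FPKM in Ctrl mice. OEx replicates 1 and 2 were far above all Ctrl mice, but OEx replicate 3 lay just below Ctrl replicate 3, so that the groups overlapped. Fn1 rose in OEx mice, with a log2 fold change of 1.47 (SE 0.485, 95% interval 0.31 to 2.63, limma FDR 0.0325), and an exact permutation test gave p = 0.2. It was the 1 gene called among the 7 marker genes that passed the filter, next to 28.6% of all tested rows.

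The call of Fn1 depended on which mice entered the fit. Leaving out OEx replicate 1 gave a log2 fold change of 1.21 (limma FDR 0.0970), and leaving out OEx replicate 2 gave 1.16 (limma FDR 0.0975). Without Ctrl replicate 1 it was 1.35 (limma FDR 0.0917) and without Ctrl replicate 2 it was 1.37 (limma FDR 0.0903), so that the call was lost in these 4 cases. Without OEx replicate 3 the log2 fold change was 2.04 (limma FDR 7.63e-04), without Ctrl replicate 3 it was 1.69 (limma FDR 0.0410), and without both it was 2.26 (limma FDR 1.13e-05). With no filter on low values the FDR of Fn1 was 0.0663, where 13.4% of all rows were called. The gene Apol7d overlaps Fn1 on the other strand.

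Fn1 and Vim moved together within a group but not between groups. The ratio of Fn1 to Vim within a mouse was 130%, 148% and 175% in OEx mice and 22.7%, 26.2% and 28.4% in Ctrl mice. All 3 OEx mice, replicate 3 included, were above all Ctrl mice, at 5.84 times the geometric mean of the Ctrl ratios. This ratio does not depend on the scaling between mice, and it was chosen after the values were seen. The ratio of Fn1 to Cdh1 was 25.9%, 27.8% and 7.39% in OEx mice and 6.72%, 6.84% and 16.4% in Ctrl mice, with overlapping groups.

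**Figure D2:**
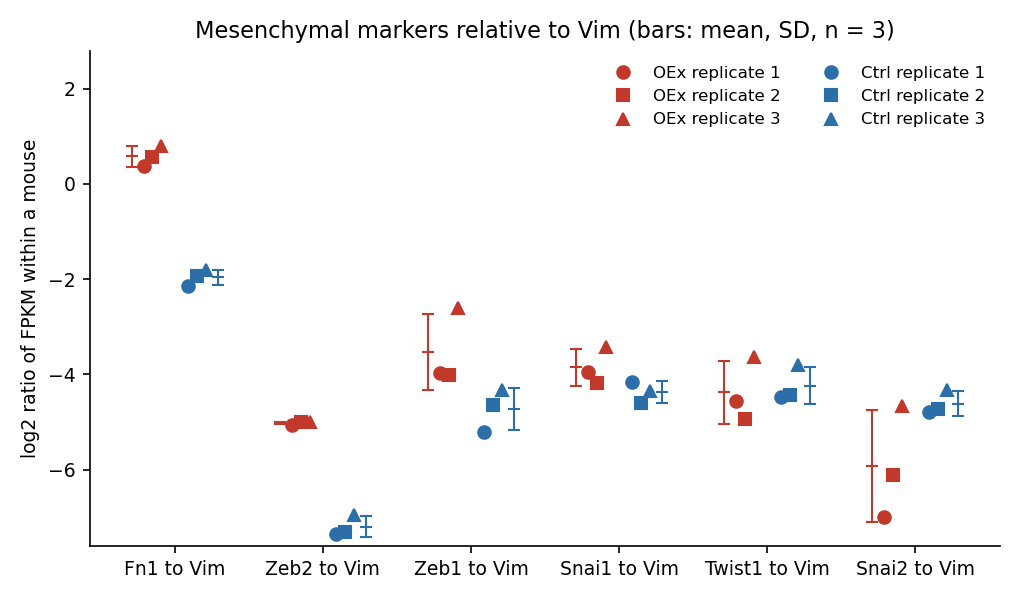
Log2 ratio of FPKM of 6 marker genes to Vim within each mouse, with the mean and SD of 3 mice beside the points. Fn1, Zeb2 and Zeb1 are higher relative to Vim in each OEx mouse than in each Ctrl mouse, and Snai1, Twist1 and Snai2 overlap.

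The Snail family gave low values. Snai1 (chr2:167538195-167542814), whose promoter window is shown above, was at 1.64, 1.32 and 0.513 FPKM in OEx mice and at 1.53, 1.001 and 1.83 FPKM in Ctrl mice. The groups overlapped, and OEx replicate 3 was the lowest. The log2 fold change was -0.21 (SE 0.245, 95% interval -0.80 to 0.38, limma FDR 0.477), from 15 to 53 recovered reads per mouse. The value turned to 0.028 without OEx replicate 3, to 0.14 without replicate 3 of both groups and to 0.30 with equal sums of FPKM in each mouse, none of them called.

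Snai2 (chr16:14705852-14709385), which encodes Slug and is also known from basal epithelial cells, was at 0.198, 0.346 and 0.219 FPKM in OEx mice and at 0.989, 0.917 and 1.86 FPKM in Ctrl mice. Each OEx mouse was below each Ctrl mouse, from 8 to 16 recovered reads in OEx and 24 to 57 in Ctrl mice. The mean level was 4.92 times higher in Ctrl mice, but the gene was under 1 FPKM on average and was not tested in the main comparison. In the limma fit with no filter on low values the log2 fold change was -0.82 (FDR 0.0139), below the fold criterion. The 1 FPKM added before the log2 shrinks changes at this level, so that this value understates the difference of the means. Beside Snai2, the 6 basal epithelial markers summed to between 9.49 and 19.7 FPKM in OEx mice and between 219 and 256 FPKM in Ctrl mice. Their part in the level of Snai2 was not tested.

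Twist1 (chr12:33957671-33959829), a basic helix-loop-helix factor of mesenchymal cells, was at 1.08, 0.779 and 0.442 FPKM in OEx mice and at 1.23, 1.14 and 2.67 FPKM in Ctrl mice. The OEx mice were all below the Ctrl mice, although OEx replicate 1 and Ctrl replicate 2 differed by little. The log2 fold change of -0.57 did not pass the test (SE 0.253, 95% interval -1.18 to 0.04, limma FDR 0.0848). It was -0.18 without replicate 3 of both groups (limma FDR 0.232). The 1 FPKM added before the log2 shrinks changes at this level. With 0.1 FPKM added instead, the log2 fold change was -1.01 (limma FDR 0.0798). With limma-voom it was -1.11 (FDR 0.0723), and neither was called.

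The Zeb genes encode repressors with clusters of zinc fingers near both ends of the protein, which bind E-boxes. Zeb1 (chr18:5591860-5775467) was at 1.62, 1.47 and 0.907 FPKM in OEx mice and at 0.740, 0.978 and 1.85 FPKM in Ctrl mice. Both ranges overlapped, since replicate 3 was the lowest OEx mouse and the highest Ctrl mouse. The log2 fold change was 0.11 (SE 0.225, 95% interval -0.43 to 0.65, limma FDR 0.681). It was -0.038 without Ctrl replicate 1 and 0.46 without replicate 3 of both groups (limma FDR 0.0174), below the fold criterion.

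Zeb2 (chr2:44983632-45117395) was at 0.762, 0.748 and 0.172 FPKM in OEx mice and at 0.168, 0.155 and 0.300 FPKM in Ctrl mice, under the minimum for the main test. OEx replicates 1 and 2 were above all Ctrl mice, and OEx replicate 3 lay among them. In the limma fit with no filter on low values the log2 fold change was 0.35 (FDR 0.180). With limma-voom on rows with at least 10 reads in at least 3 mice, which Zeb2 passed in all 6 mice, it was 1.25 (FDR 0.172). Relative to Vim, Zeb2 was at 3.01%, 3.12% and 3.11% in OEx mice and at 0.614%, 0.633% and 0.810% in Ctrl mice, 4.53 times higher with no overlap. Zeb1 relative to Vim was at 6.38%, 6.15% and 16.4% in OEx mice and at 2.70%, 3.996% and 4.98% in Ctrl mice. Overlapping genes, among them Zeb2os on the other strand of Zeb2, could share reads with Zeb1 and Zeb2.

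The deposited scaling bears on all of these changes. The denominators behind the FPKM values exceeded the recovered reads of OEx mice 1.22 to 1.34 times, while those of Ctrl mice were 0.726 to 0.815 times as large, and the top gene alone held at least 14.2% of reads in each Ctrl mouse and at most 1.12% in any OEx mouse. The median log2 fold change of all tested rows was -0.08 with the deposited values and 0.66 with each mouse scaled to the same sum of FPKM. With equal sums, Cdh1 (1.53, limma FDR 4.68e-04), Epcam (1.35, limma FDR 0.00191) and Fn1 (2.31, limma FDR 0.00515) were called as higher, beside 35.2% of all tested rows. Relative to the median of all rows, Cdh1 differed by 0.71 with the deposited and by 0.87 with the equal-sum scaling, Epcam by 0.53 and 0.69, and Fn1 by 1.55 and 1.65. Vim was at -0.04 with equal sums (limma FDR 0.957) and Twist1 at -0.10 (limma FDR 0.731), both close to 0. Relative to the median of all rows, Vim was at -0.82 with the deposited and -0.70 with the equal-sum scaling, and it was not called with any scaling.

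**Figure D3:**
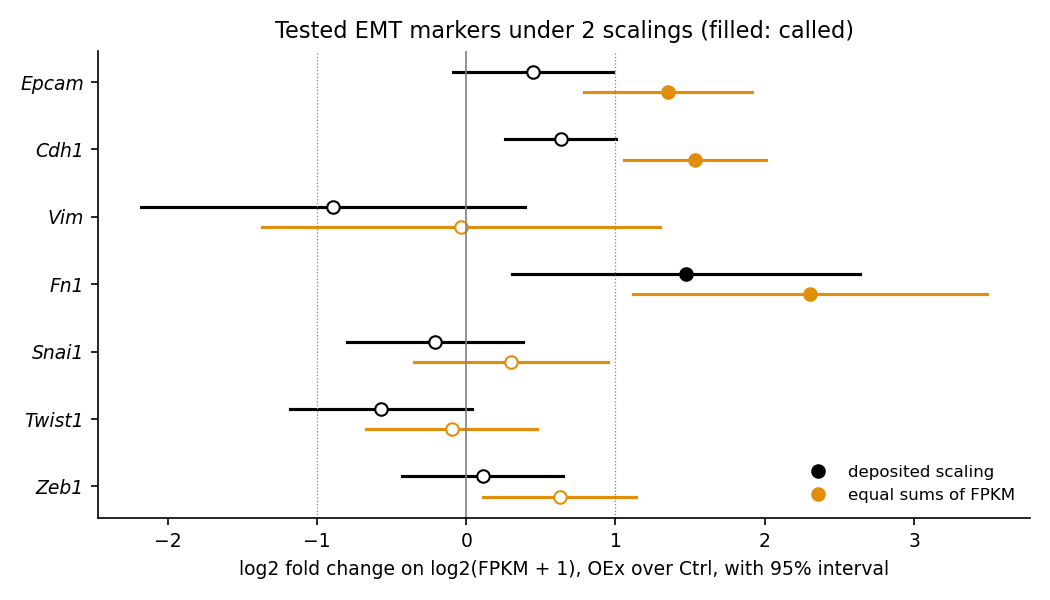
Log2 fold changes of the 7 tested marker genes with 95% intervals, from the deposited scaling (black) and from equal sums of FPKM (orange), with filled points for called genes. Fn1 is called with both scalings, Cdh1 and Epcam with equal sums, and Vim, Snai1, Twist1 and Zeb1 with neither.

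Markers of the cell types of the lobe moved between groups and between replicates. The 8 smooth muscle markers summed to between 437 and 519 FPKM in OEx mice and between 1284 and 2737 FPKM in Ctrl mice, and 7 of them fell, or 1 of them with equal sums of FPKM. All 8 endothelial markers had log2 fold changes below 0 (6 of them with equal sums of FPKM), with sums of 10.4 to 13.9 FPKM in OEx mice against 29.2 to 47.3 FPKM in Ctrl mice, and 2 of them fell. Of the 10 fibroblast markers, Gsn was called as lower, and the other 9 summed to 195, 190 and 34.7 FPKM in OEx mice and to 79.4, 76.2 and 142 FPKM in Ctrl mice. With equal sums of FPKM, Lum was called as higher, beside 35.2% of all tested rows. Lum, Col3a1 and Mfap5 were called as higher without OEx replicate 3, beside 13.4% of all tested rows. Gsn stayed called as lower in both cases. Limma-voom also called Apod as lower, beside 19.2% of all tested rows. The 9 leukocyte markers summed to 555, 528 and 103 FPKM in OEx mice and to 161, 159 and 286 FPKM in Ctrl mice. Of the 6 tested, 0 were called by limma or limma-voom, with 0 at an unadjusted p under 0.05. Without OEx replicate 3, however, all 6 were called as higher, beside 13.4% of all tested rows. With equal sums of FPKM, Adgre1, Csf1r and Laptm5 were called as higher, 3 of the 6, beside 35.2% of all tested rows. Ptprc was called with limma-voom on rows with at least 10 reads in at least 3 mice. Of the 9 luminal markers 5 were called as lower, and the sum ran from 3654 to 6711 FPKM in OEx and from 17881 to 21652 FPKM in Ctrl mice. Over all tested rows, 15.7% were called as lower with the deposited scaling and 3.98% with equal sums of FPKM.

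The low values of OEx replicate 3 in Vim, Fn1 and Zeb2 were also seen in the fibroblast and leukocyte sums. The mean of OEx replicates 1 and 2 was 4.45 times the value of OEx replicate 3 for Vim, 4.38 times for Zeb2 and 3.53 times for Fn1, next to 5.54 times for the summed fibroblast markers without Gsn and 5.24 times for the summed leukocyte markers. It was 2.89 times for Snai1, 2.10 times for Twist1, 1.70 times for Zeb1 and 1.24 times for Snai2, and 1.19 times for the smooth muscle and 1.303 times for the endothelial sum. For Cdh1 it was 0.968 times, for Epcam 0.634 times and for Cdh2 0.298 times. Relative to the sum of all 10 fibroblast markers, Fn1 was at 13.1%, 14.4% and 8.71% in OEx mice and at 1.70%, 1.82% and 1.66% in Ctrl mice, with no overlap. For Vim the same ratio was 10.1%, 9.77% and 4.98% in OEx mice and 7.48%, 6.94% and 5.83% in Ctrl mice, which overlapped. The direction for Vim changed when Gsn was left out of the sum. Relative to the fibroblast sum without Gsn, Fn1 was at 16.9%, 18.6% and 27.9% in OEx mice and at 7.83%, 8.40% and 7.42% in Ctrl mice, 2.62 times higher with no overlap. On this second footing Vim was lower, between 12.6% and 15.9% in OEx mice against 26.1% to 34.5% in Ctrl mice. Snai2 was lower as well, at 0.102%, 0.182% and 0.631% against 1.24%, 1.20% and 1.31%. The ratios without Gsn were chosen after the values were seen, and the part of the cell types in the level of any marker gene was not tested.

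**Figure D4:**
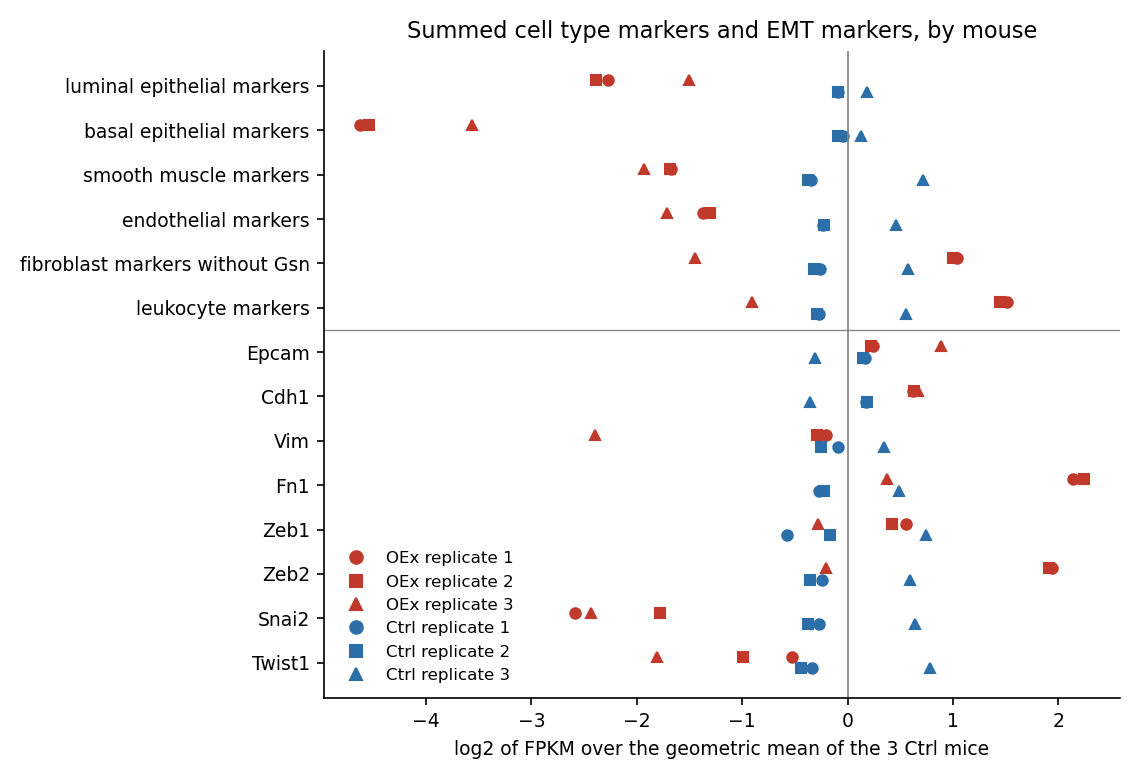
Summed FPKM of 6 cell type marker lists (upper rows) and FPKM of 8 marker genes (lower rows), as log2 over the geometric mean of the 3 Ctrl mice, with 1 point per mouse. OEx replicate 3 lies below the other OEx mice for the fibroblast and leukocyte sums and for Vim, Fn1 and Zeb2, and luminal, basal, smooth muscle and endothelial sums are lower in all OEx mice.

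Other epithelial genes were counted in lists. Of 20 genes of epithelial junctions and polarity, all were tested, and 2 were called as higher and 2 as lower. Over all tested rows, 12.9% were called as higher and 15.7% as lower. The list median was 0.15 on the log2 scale against -0.08 for all tested rows. Dsp, which encodes the desmosomal protein desmoplakin, rose from 24.0 ± 4.31 to 53.5 ± 13.9 FPKM (SD, n = 3) with a log2 fold change of 1.11 (limma FDR 0.00322). Marveld2, a gene of tricellular tight junctions, rose by 1.11 (limma FDR 5.36e-04) and did not overlap between groups. Without Ctrl replicate 3, neither was called and Crb3 was the 1 gene of the list that remained. Without OEx replicate 3, Marveld2 and Crb3 remained, 2 in all. Cdh3, which encodes P-cadherin of basal cells, fell from 3.48 ± 0.782 to 1.11 ± 0.468 FPKM (SD, n = 3), which is -1.10 on the log2 scale (limma FDR 0.00365). Crb3, a gene of apical polarity, fell from 45.9 ± 3.07 to 20.1 ± 1.36 FPKM (SD, n = 3), which is -1.15 on the log2 scale (limma FDR 8.94e-05). With equal sums of FPKM, 10 genes of the list were called as higher, beside 35.2% of all tested rows. Dsp and Marveld2 were among them, and Cdh3 and Crb3 were not called. The most abundant genes of the list did not pass both criteria, with log2 fold changes of -0.04 for Cldn3, 0.05 for Ctnna1, -0.23 for Cldn7 and 0.47 for Ctnnb1.

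Of 17 regulators of epithelial identity, 16 were tested, and their median log2 fold change was 0.17. Klf5, a Krüppel-like factor of epithelial cells, rose from 3.30 ± 0.225 to 9.55 ± 0.202 FPKM (SD, n = 3), with a log2 fold change of 1.296 (limma FDR 4.72e-05). Elf5, an ETS factor, fell from 10.2 ± 3.55 to 0.258 ± 0.112 FPKM (SD, n = 3), which is -3.11 on the log2 scale (limma FDR 6.28e-05). It passed the filter only through the Ctrl mice. The abundant regulators Spint2 (0.30), Ehf (-0.33), Foxa1 (0.26) and Spint1 (0.19) had log2 fold changes under the fold criterion. Esrp2, which directs epithelial splicing, was the gene with the second highest correlation with Cdh1 over the 6 mice (r = 0.997), after Atxn2l (r = 0.998) and before Fam84a (r = 0.995), among the 4537 genes averaging 10 FPKM or more. For Vim, the most alike were Gpx3 (r = 0.994), S100a11 and Vmp1 (r = 0.990 each). These correlations share the groups and replicate 3 and are given as a description.

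Of 14 other transcription factor genes linked to the transition, 7 were tested, and each of the 7 had a log2 fold change above 0, with a median of 0.78. With no filter on low values, 13 were tested, 10 of them above and 3 below 0, with a median of 0.25. Among the genes under the filter was Twist2, named after its values were seen, at 0.205, 0.289 and 0.227 FPKM in OEx mice and at 0.680, 0.657 and 1.91 FPKM in Ctrl mice, where every OEx mouse was below every Ctrl mouse. Sox9, known from prostate epithelial buds and progenitors, rose from 9.99 ± 1.05 to 63.1 ± 5.72 FPKM (SD, n = 3), which is 2.54 on the log2 scale (limma FDR 2.33e-05). Foxc1, a forkhead factor gene, was at 4.04, 4.03 and 4.04 FPKM in OEx mice and at 1.12, 1.10 and 0.912 FPKM in Ctrl mice, with no overlap. Its log2 fold change was 1.303 (limma FDR 7.65e-05). The log2 fold changes of Tcf3 (0.05) and Foxq1 (0.25) did not pass the test. In OEx replicate 3, Sox9 was at 56.5 FPKM, next to 66.9 and 65.7 FPKM in the other OEx mice.

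Of 24 mesenchymal effector genes, 23 were tested, and their median was 0.40 on the log2 scale. The calls were 3 higher and 3 lower, beside 12.9% and 15.7% of all tested rows. With equal sums of FPKM the balance was 8 higher and 0 lower, with a list median of 1.06 against 0.66 for all tested rows. That scaling called 35.2% of all tested rows as higher and 3.98% as lower. The genes called with the deposited scaling were named after their values were seen. Tnc, the gene of the matrix protein tenascin C, was at 6.44, 6.63 and 0.642 FPKM in OEx mice and at 0.237, 0.189 and 0.601 FPKM in Ctrl mice. Every OEx value was above every Ctrl value, by a small margin for OEx replicate 3, and the log2 fold change was 1.77 (limma FDR 0.0343). With a mean of 0.342 FPKM in Ctrl mice, Tnc passed the filter only through the OEx mice. Postn, the gene of periostin, was at 10.7, 9.86 and 3.37 FPKM in OEx mice and at 0.707, 0.994 and 1.72 FPKM in Ctrl mice, again with no overlap and with a log2 fold change of 1.97 (limma FDR 0.00445). Lox, which encodes the collagen crosslinking enzyme lysyl oxidase, had a log2 fold change of 2.42 (limma FDR 0.0364), and its groups overlapped. It averaged 0.829 FPKM in Ctrl mice and also passed the filter only through the OEx mice. The same step down in OEx replicate 3 as in Fn1 is seen in Tnc, Postn and Lox. Postn alone remained called as higher when any one of OEx replicate 1, OEx replicate 2 or a Ctrl mouse was left out.

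The 3 genes that fell in this list were Axl, a receptor tyrosine kinase gene, with a log2 fold change of -1.06 (limma FDR 0.0209), Cyr61, which encodes a matricellular protein, with -2.45 (limma FDR 0.0158), and S100a4, a calcium-binding protein gene, with -1.23 (limma FDR 2.15e-04) from 2 to 4 recovered reads in OEx and 13 to 19 in Ctrl mice. S100a4 averaged 0.249 FPKM in OEx and 1.92 FPKM in Ctrl mice. It passed the filter only through the Ctrl mice, so its call supports nothing about the list. Axl was not called without OEx replicate 3 or without Ctrl replicate 3. With equal sums of FPKM none of these 3 genes was called, with their direction kept. The abundant genes of the list did not pass, with log2 fold changes of 0.49 for Sparc, -1.17 for Lgals1, 0.17 for Itgb1 and 1.29 for Col1a1. Of the 23 tested genes, 22 were lowest in replicate 3 among the OEx mice and 20 were highest in replicate 3 among the Ctrl mice. Without OEx replicate 3, 11 genes of the list were called, 9 of them higher, where 29.3% of all tested rows were called. Without replicate 3 of both groups 12 were called, 10 of them higher, beside 30.7% of all tested rows. Leaving out Ctrl replicate 3 left 3 called.

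**Figure D5:**
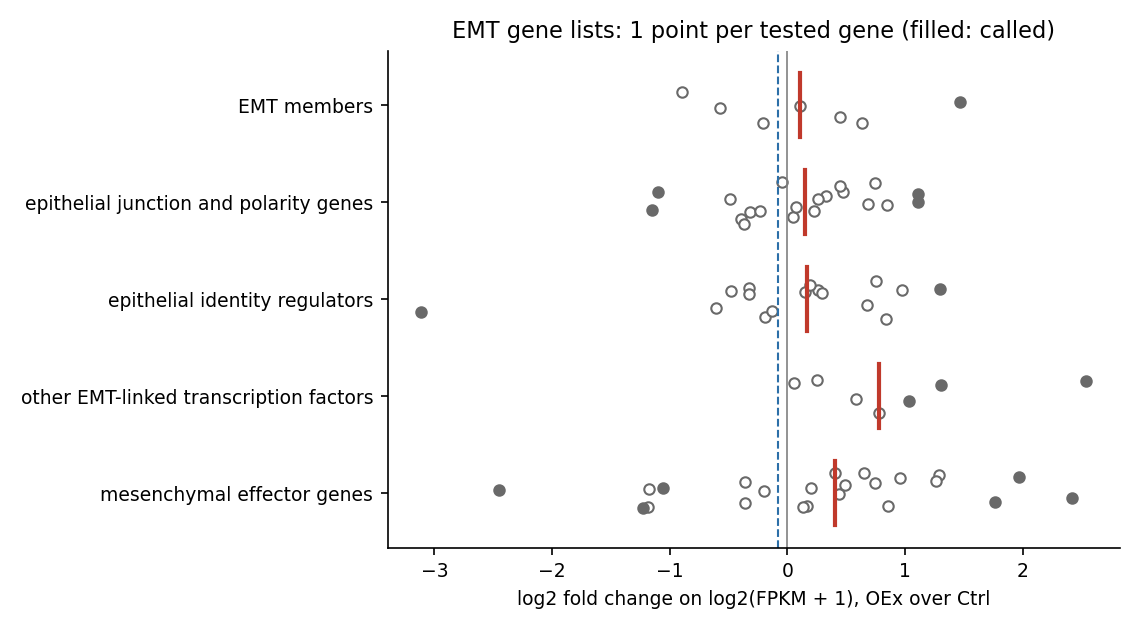
Log2 fold changes of the tested genes of the 10 marker genes and of 4 wider lists, with 1 point per gene, filled where called. Red bars are list medians (0.11, 0.15, 0.17, 0.78 and 0.40 from top to bottom), and the dashed line is the median of all tested rows (-0.08).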

How the data were processed

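RNA-seq of whole AP from 3 OEx and 3 Ctrl mice was used. The values deposited by the authors are FPKM, in 1 table for each mouse, with genes named by symbol. The submitters' processing notes name CASAVA, HISAT2 2.0.5, StringTie 1.3.3b and featureCounts 1.5.0-p3, with no roles, and how the values were scaled between mice is not given in the sources used here. The marker genes and gene lists were chosen with earlier results of these data known.

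Symbols were matched to GENCODE M21 (GRCm38). With its exon lengths, 96.9% to 97.5% of the values of a mouse below 1000 reads came out as whole reads within 0.05 reads, and these recovered reads gave depth and limma-voom input. Floors and depths cover counting error only. OEx and Ctrl were compared with limma 3.58.1 (R 4.3.3) on log2(FPKM + 1) with an intensity trend and the group as the only term, which understates changes of low genes. P-values were adjusted over the 12833 rows averaging 1 FPKM or more. On simulated data with 12363 genes, 94.6% of genes changed by log2 2 and 78.9% of those changed by log2 1.5 were called, and 8 of 12175 unchanged genes. The simulation held 188 changed genes, no outlying mouse and no shift of scaling between groups. Its shares therefore do not carry over to these mice. Permutation tests were exact and two-sided. Named are the 10 marker genes, called genes of lists with at most 4 calls, and the most abundant genes of each list. Some genes of the lists are not reported here. Other names were chosen after values were seen. Alternatives were other scalings, filters, pseudocounts, a replicate block, limma-voom and leaving out mice. Leaving out replicate 3 of both groups, the filter on reads and ratios to Vim were added after seeing the data. Further steps used Python 3.11.15, pandas 2.3.3, numpy 2.4.6, scipy 1.17.1 and matplotlib 3.10.9.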

Additional observations from a re-analysis of the deposited data

How the results depend on the processing

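Depth limited Cdh2, Snai2 and S100a4, which rested on few reads, and 3 mice per group limited all tests. With equal sums of FPKM the log2 fold changes were 1.53 for Cdh1, 1.35 for Epcam and 0.30 for Snai1, and 3 marker genes, 10 junction genes, 9 identity regulators and 5 other transcription factor genes were called. Leaving the 20 most abundant rows out of the sums gave 1.29, 1.10 and 0.16, with 3, 7 and 6 called in the first 3 of these groups. Upper-quartile scaling gave 5 identity regulators. The calls over all rows were 1653 higher and 2021 lower with the deposited scaling, 4512 and 511 with equal sums, 3512 and 722 without the 20 most abundant rows, and 2346 and 1327 with upper-quartile scaling. Without a filter on low values Fn1 kept 1.47 but lost its call, which left 0 marker genes by limma, with 3 of them at an unadjusted p under 0.05. A minimum of 5 FPKM left Zeb1, Snai1 and Twist1 without a value, 1 other transcription factor gene and 2245 rows called. A pseudocount of 0.1 and limma-voom each called 5 other transcription factor genes, beside 37.1% of all tested rows in each. With limma-voom and at least 10 reads in at least 3 mice, Cdh2 was at 3.08 and Snai2 at -2.23, and 3 marker genes, 8 other transcription factor genes and 6295 rows were called. Cdh2 entered this fit only through the OEx mice and Snai2 through the Ctrl mice, so that these calls and the count of 3 support nothing about the marker genes. Among the 8 other transcription factor genes, Klf8 entered only through the OEx mice and Foxc2 through the Ctrl mice. The count of 8 therefore supports nothing about that list. With no fold criterion, 2 marker genes, 12 junction genes, 9 identity regulators, 5 other transcription factor genes and 8621 rows passed.

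With 1 mouse left out at a time, the log2 fold change ran from 1.16 to 2.04 for Fn1, from -0.37 to 0.028 (without OEx replicate 3) for Snai1 and from -0.038 (without Ctrl replicate 1) to 0.32 for Zeb1, and called were 0 to 1 marker genes, 1 to 4 junction genes and 3 to 11 mesenchymal effector genes. Without replicate 3 of both groups Snai1 was at 0.14, and 1 junction gene and 12 mesenchymal effector genes were called. The cause of these shifts was not tested. The labels number the mice and do not state whether same-numbered mice were paired. The deviations of same-numbered mice from their group means correlated with r from -0.307 to -0.189, against a mean of 0.0951 for other pairs. With 3 mice in a group these deviations sum to 0 and replicate 3 weighs heavily, so they cannot decide whether mice were paired. With the replicate number as a block, Fn1 stayed at 1.47 with an FDR of 0.0800, and 0 marker genes (1 at an unadjusted p under 0.05), 2 mesenchymal effector genes and 3597 rows were called. The ratio of Cdh2 to Cdh1 has no log2 value in Ctrl replicate 2. With 1 mouse left out at a time, the group differences in the ratios of Fn1 and Zeb2 to Vim ran from 2.43 to 2.65 and from 2.10 to 2.30 on the log2 scale. The groups did not overlap in these ratios, so leaving out 1 mouse could not change their direction. Cdh1, Epcam, Twist1 and Vim kept the sign of their change in each of the alternatives that gave them a value, although Vim at -0.04 and Twist1 at -0.10 were close to 0 with equal sums of FPKM. Part of this was fixed in advance. Other filters, a fit without the trend and the replicate block leave an estimate unchanged. For Cdh1, Epcam and Twist1 the groups did not overlap, so leaving out 1 mouse could not change the sign.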
